A study of Mus musculus with 24 samples.

Results

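The transcripts described here were those that fell in the left ventricle of the mouse within 45 min of a sham heart surgery. They were 59 of the 300 transcripts that the study left outside its co-expression modules, of 1209 transcripts in its table of modules and of 63758 in the counts. Each was chosen by measured values: a mean of at least 1 CPM (the count scaled to the library total) at 0 min, and a log2 ratio of the mean CPM at 45 min to that at 0 min of -0.5 or less, with 0.5 added to each mean. A further 2 transcripts, Crhr2 and Klf4, met the same conditions and were left out by name. The fall at 45 min was therefore the condition of entry and not a finding, and where calls at 45 min are counted below, the counts describe the choice and nothing is read from them.

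The samples were 24 left ventricles of male C57BL/6 mice (C57BL/6J in the study's methods) aged 8 to 12 weeks, with 8 mice at each of 3 time points, 1 sample per mouse and no pooling. All mice, those of 0 min included, were anesthetized with pentobarbital and buprenorphine, ventilated, and opened by left thoracotomy, and a suture was passed around the left anterior descending coronary artery and never tied. The suture was taken out at once in the 0 min group and after 45 min in the 45 min group, while the 24 h group had the chest closed after 45 min and was kept until 24 h. The 0 min group thus stood for operated hearts at the start, and unoperated hearts were not part of the design. Total counts were 9887957 to 14091629 per library, and the libraries of 45 min had between 12972 and 18109 transcripts with at least 1 count, with the 3 lowest numbers in replicates 6, 7 and 8. The study reports several surgeons and several pools of library construction, and saw no grouping of its samples by either. The sample labels used here do not assign mice to surgeons or pools, so neither was in the model. Values are given below as normalized counts (CPM after TMM scaling, which corrects the library total for a few very abundant transcripts), as the lowest, median and highest of the 8 mice of a group. A value is that of 1 UCSC transcript and not of the whole gene. In the plot of all members by library, the 8 libraries of 45 min were the low ones for most transcripts, and the 24 h libraries were low for a smaller group.

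**Figure D1:**
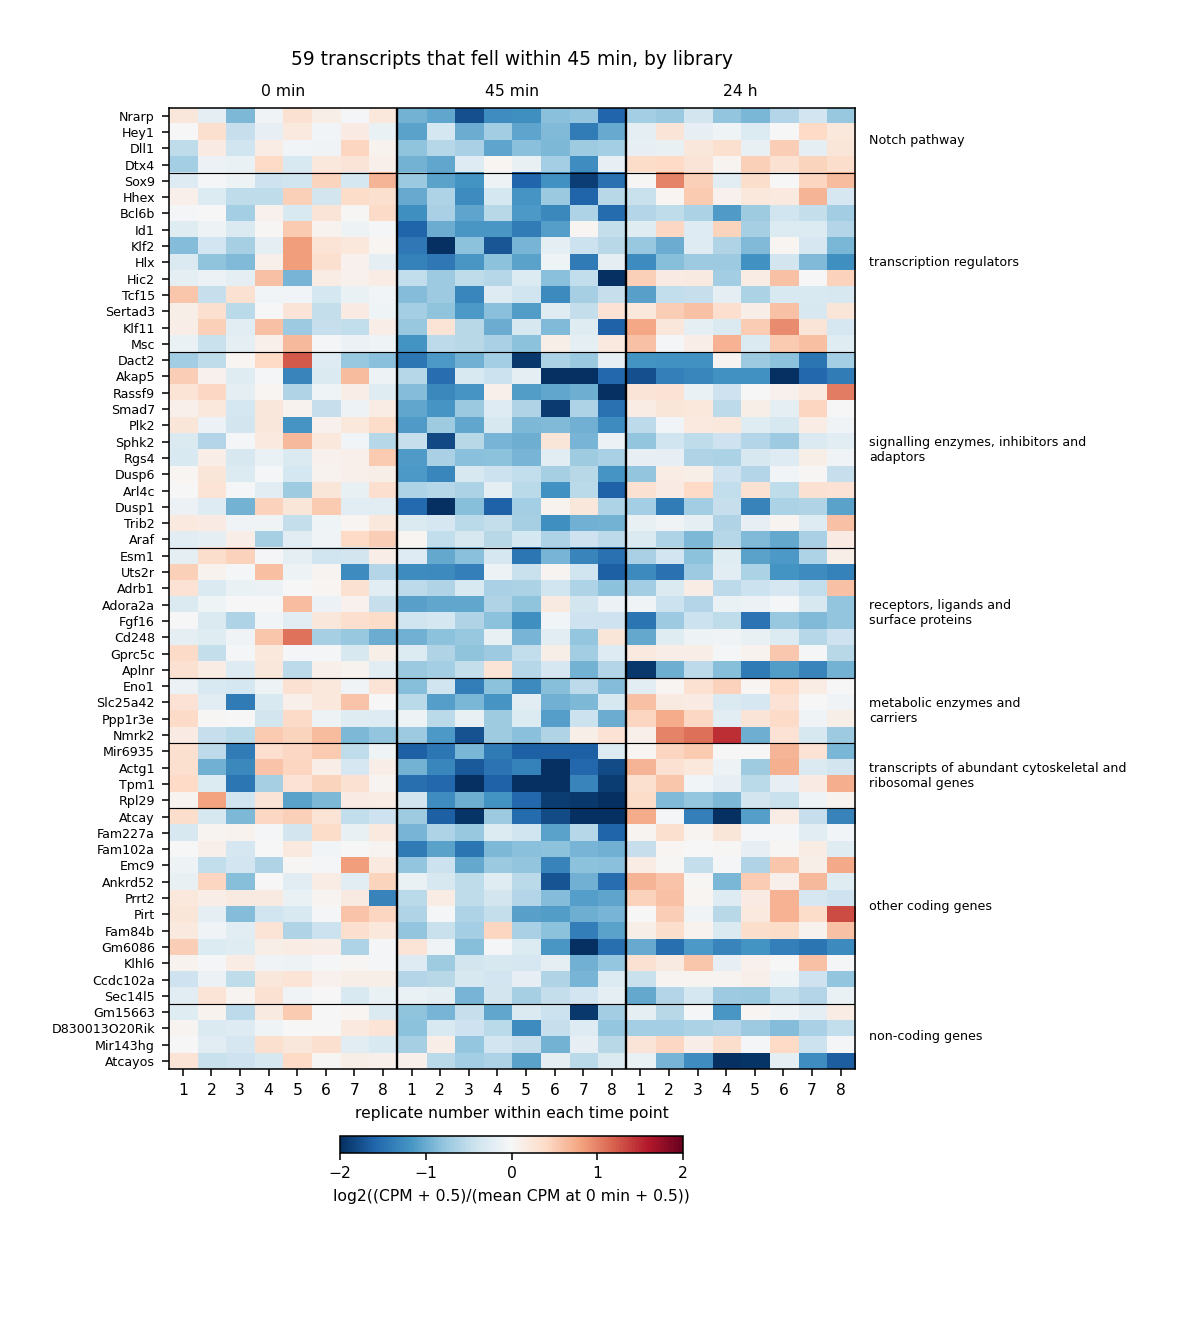
Each row is 1 of the 59 transcripts and each column 1 mouse, grouped by time point, and the color is the log2 ratio of the normalized count to the mean at 0 min, with 0.5 added to both (blue lower, red higher, color scale limited to -2 and 2). Rows are ordered by role and, within a role, by the change at 45 min; the 45 min block is mostly blue because the transcripts were selected on it, and at 24 h rows such as Akap5, Aplnr, Gm6086 and Atcayos stay blue while most others are near white.

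The members include genes of Notch and BMP signalling, endothelial transcription factors and inhibitors of kinase signalling. Notch signalling passes between neighbouring cells: a ligand such as Dll1 on a cell binds the Notch receptor of its neighbour, whose inner part is then cut free, enters the nucleus and switches on targets such as Hey1 and Nrarp, and Nrarp then damps the pathway. BMP and TGF-beta signals switch on Id1 and the inhibitor Smad7. Klf2, Hhex, Tcf15 and Bcl6b are transcription factors of endothelium, the cell layer that lines the vessels and capillaries of the myocardium, and Klf2 is known for its response to the shear of flowing blood. Dusp1, Dusp6, Rgs4 and Trib2 damp MAP kinase or G protein signalling, and many mRNAs of this kind are known to turn over quickly.

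Promoter sequence is given as a description of the members, on windows of 250 bases before to 50 bases after the start of each gene, taken from RefSeq with the build GRCm38.p6. A window was found for 36 of the 59 members, and both strands were searched. The cAMP response element TGACGTCA, the textbook site of the CREB family, stood in 4 of the 36 windows (11.1%; Dusp1, Hic2, Plk2 and Sphk2), against 2.03% of 27025 genes and 2.47% of the 809 other genes of the study table with a window. Its shorter part TGACG, which every TGACGTCA also contains, stood in 14 windows (38.9%), against 23.0% of all genes and 25.1% of the other genes of the table. The letters TTCCCAC, the core that the Notch effector Rbpj binds, stood in 1 window (2.78%; Plk2), against 7.25% of all genes and 6.92% of the other genes of the table, and not in that of Nrarp. The GC box GGGNGG was found in 32 windows (88.9%, against 70.1% of all genes and 87.1% of the other genes of the table) and the Kruppel-like factor core CACCC in 21 (58.3%, against 59.8% and 69.8%). The E-box CACGTG stood in 4 (11.1%, against 8.09% and 8.9%) and GGCGCC in 14 (38.9%, against 13.4% and 20%). The TATA box TATAAA stood in 3 (8.33%, against 15.7% and 12.5%), the AP-1 site TGANTCA in 1 (2.78%, against 8.97% and 8.41%) and the ETS site GGAAGTG in 1 (2.78%, against 12.5% and 14.2%). These shares were not matched for base composition, and a match is only a match of letters.

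The stretches below are the 250 bases before the start of 5 genes, written from 5′ to 3′ on the strand of the gene, and the capitals mark TGACG or its reverse complement. They show 3 genes with the complete TGACGTCA, ahead of the signalling phosphatase Dusp1 (at position -143 from the start), the kinase Plk2 (at -62) and the transcriptional repressor Hic2 (at -19), and then 2 with the shorter match only, the Notch feedback gene Nrarp (at -69) and the endothelial factor Klf2 (at -241).
Dusp1, chr17:26508473-26508722, minus strand: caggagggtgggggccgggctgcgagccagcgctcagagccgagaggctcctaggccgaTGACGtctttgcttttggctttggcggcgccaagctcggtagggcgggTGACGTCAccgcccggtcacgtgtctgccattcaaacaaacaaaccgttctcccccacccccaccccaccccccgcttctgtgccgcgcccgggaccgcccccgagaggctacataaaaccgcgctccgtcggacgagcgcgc
Plk2, chr13:110394794-110395043, plus strand: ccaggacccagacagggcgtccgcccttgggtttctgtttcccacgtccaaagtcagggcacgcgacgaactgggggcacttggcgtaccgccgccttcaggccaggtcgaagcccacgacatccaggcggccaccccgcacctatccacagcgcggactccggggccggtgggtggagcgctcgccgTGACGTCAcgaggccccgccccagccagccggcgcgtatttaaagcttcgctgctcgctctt
Hic2, chr16:17233337-17233586, plus strand: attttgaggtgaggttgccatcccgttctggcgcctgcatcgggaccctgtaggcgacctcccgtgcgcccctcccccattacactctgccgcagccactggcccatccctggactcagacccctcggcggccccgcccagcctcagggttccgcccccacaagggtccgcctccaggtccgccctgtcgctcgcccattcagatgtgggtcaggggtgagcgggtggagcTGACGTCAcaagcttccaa
Nrarp, chr2:25180508-25180757, plus strand: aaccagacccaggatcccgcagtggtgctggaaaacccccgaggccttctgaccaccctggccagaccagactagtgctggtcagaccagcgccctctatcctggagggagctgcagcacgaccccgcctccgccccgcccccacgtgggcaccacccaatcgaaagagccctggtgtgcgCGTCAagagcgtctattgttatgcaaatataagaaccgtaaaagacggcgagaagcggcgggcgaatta
Klf2, chr8:72318812-72319061, plus strand: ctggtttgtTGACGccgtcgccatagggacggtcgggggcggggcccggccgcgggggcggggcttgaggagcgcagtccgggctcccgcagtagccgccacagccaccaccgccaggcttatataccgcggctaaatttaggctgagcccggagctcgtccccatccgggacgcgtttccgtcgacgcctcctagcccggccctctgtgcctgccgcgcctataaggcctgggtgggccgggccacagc

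The genes were also compact, a property that the selection did not use. The 54 protein-coding genes among them spanned a median of 7.78 kb in GRCm38.p6, with quartiles of 3.72 and 21.4 kb. The other protein-coding genes outside the modules had a median of 25.5 kb (n = 215), and all others of the study table one of 21.3 kb (n = 1046). Of the members, 19 (35.2%) were under 5 kb, against 8.84% and 13.0% of those groups. The median of the largest number of exons per gene was 4 for the members and 8 for both other groups, and 5 members (Adrb1, Aplnr, Cd248, Nrarp and Uts2r) had 1 exon. No test was made of this difference, which is given as a description. The remaining members were 4 long non-coding RNAs and 1 microRNA, Mir6935.

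**Figure D2:**
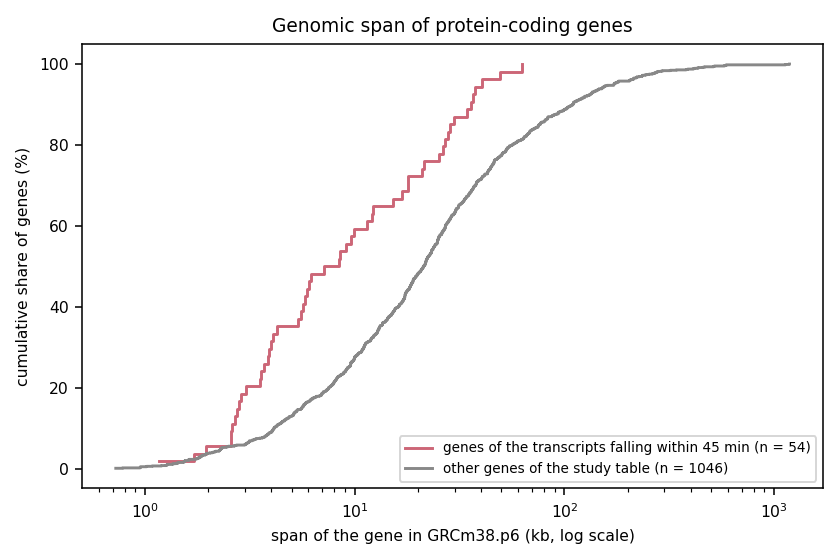
Each line is the cumulative share (%) of protein-coding genes with a genomic span up to the value on the x axis (kb, log scale), for the members (n = 54) and for all other genes of the study table (n = 1046). The line of the members lies to the left of the other over most of the range, with medians of 7.78 and 21.3 kb.

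The Notch genes held a ligand, a target, a feedback inhibitor and an adaptor. Dll1 (chr17:15367354-15376932), the ligand, had 6.14, 8.94 and 12.2 CPM (lowest, median and highest) at 0 min, 4.00, 5.04 and 5.84 CPM at 45 min, and 7.72, 9.26 and 12.7 CPM at 24 h. Every mouse of 45 min lay below every mouse of 0 min and of 24 h, and the log2 fold change was -0.82 ± 0.15 (SE) at 45 min and 0.10 ± 0.15 at 24 h, both against 0 min. Hey1, a repressor that Notch switches on, had 8.99, 12.3 and 15.9 CPM at 0 min, 4.48, 6.06 and 9.75 CPM at 45 min, and 10.3, 12.3 and 16.7 CPM at 24 h. It overlapped between 0 and 45 min in 1 mouse and did not overlap between 45 min and 24 h, with log2 fold changes of -0.95 ± 0.15 at 45 min and 0.04 ± 0.15 at 24 h. Nrarp (chr2:25180758-25183339), the feedback inhibitor, had 11.3, 22.4 and 26.7 CPM at 0 min, 5.99, 9.55 and 12.2 CPM at 45 min, and 11.2, 13.0 and 16.6 CPM at 24 h. Its median at 24 h stood between those of the other groups, whose ranges it touched. Nrarp fell by 1.19 ± 0.17 on the log2 scale at 45 min and by 0.66 ± 0.16 at 24 h (edgeR quasi-likelihood test with Benjamini-Hochberg adjustment, adjusted p = 0.0105). Dtx4, an E3 ligase of the Deltex family that acts on Notch, had 8.05, 13.3 and 17.6 CPM at 0 min, 5.31, 9.56 and 13.7 CPM at 45 min, and 13.8, 17.2 and 18.6 CPM at 24 h, and its 24 h mice were all above those of 45 min.

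Symbols were known only for the 1209 transcripts that the study called changed over time, so only symbols among these could be paired with a transcript. Of 22 symbols in a Notch list, 10 could be paired. Of the 10, 5 were members (the 4 above and Bcl6b, kept on the list as an endothelial repressor linked to the pathway). At 45 min 4 of the 10 were called lower and 0 higher, and at 24 h 2 were called lower and 0 higher, with median log2 fold changes of -0.52 and 0.07. Over all transcripts tested, 0.246% were called lower at 45 min and 3.24% at 24 h, but all 4 calls at 45 min and both at 24 h were members, whose values at 0 and 45 min had chosen them. The receptor Notch3, the ligand Dll4 and the ligand Jag1, which the study had placed in modules, had log2 fold changes of -0.18 ± 0.14, -0.54 ± 0.23 and -0.44 ± 0.20 at 45 min, and 0.17 ± 0.14, -0.54 ± 0.23 and 0.57 ± 0.20 at 24 h, none of which passed the test. The target Heyl had -0.12 ± 0.11 and -0.26 ± 0.11, and the glycosyltransferase Lfng 0.05 ± 0.36 and 0.91 ± 0.35, again without passing it. The study had chosen its table on these samples, so the list is not independent evidence of its direction.

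In BMP and TGF-beta signalling, the members were Id1 and Smad7. Id1, which blocks the DNA binding of basic helix-loop-helix factors, had 44.9, 52.5 and 79.5 CPM at 0 min, 17.9, 24.8 and 56.4 CPM at 45 min, and 34.6, 45.8 and 75.5 CPM at 24 h. Of the 8 mice of 45 min, 7 were below every mouse of 0 min, and the log2 fold change was -0.90 ± 0.21 at 45 min and -0.13 ± 0.21 at 24 h. Smad7, the inhibitory Smad, had 6.42, 9.65 and 10.7 CPM at 0 min, 2.05, 4.68 and 7.5 CPM at 45 min, and 6.14, 10.02 and 12.3 CPM at 24 h. It too had 7 mice of 45 min below every mouse of 0 min, with log2 fold changes of -0.96 ± 0.20 and 0.09 ± 0.20. Of 13 symbols in this list only 4 were paired, and of the other 2, Id2 had log2 fold changes of -0.08 ± 0.25 at 45 min and 0.61 ± 0.25 at 24 h and Inhba, a subunit of activin, -0.77 ± 0.41 and 1.29 ± 0.36, the last of which passed the test (edgeR, adjusted p = 0.0233).

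The endothelial regulators differed among themselves at 24 h. Bcl6b (chr11:70224127-70229798) had 30.9, 50.3 and 65.2 CPM at 0 min, 16.9, 22.9 and 33.8 CPM at 45 min, and 22.4, 32.4 and 37.5 CPM at 24 h, so the 24 h mice stayed in and below the lower part of the 0 min range. Its log2 fold change was -0.98 ± 0.16 at 45 min and -0.64 ± 0.16 at 24 h (edgeR, adjusted p = 0.0105). Klf2 was the most abundant of them, with 61.5, 107.3 and 202.8 CPM at 0 min, 27.1, 61.4 and 100.1 CPM at 45 min, and 56.9, 70.7 and 116.3 CPM at 24 h, and its groups overlapped widely. Klf2 had log2 fold changes of -0.89 ± 0.26 and -0.55 ± 0.25, and it was called at neither time (edgeR at 24 h, adjusted p = 0.231). Without replicates 6, 7 and 8 of 45 min, left out after seeing the data, Klf2 had -1.35 at 45 min and was called there, but not at 24 h. Hhex, a homeobox factor, had 3.02, 4.26 and 6.46 CPM at 0 min, 1.15, 2.24 and 3.41 CPM at 45 min, and 3.19, 5.03 and 7.54 CPM at 24 h, and its 24 h mice lay about where those of 0 min did. Tcf15, a basic helix-loop-helix factor of cardiac capillaries, had 11.97, 15.9 and 24.6 CPM at 0 min, 6.39, 10.1 and 13.8 CPM at 45 min, and 7.60, 12.6 and 14.5 CPM at 24 h, with log2 fold changes of -0.72 ± 0.18 and -0.47 ± 0.17 (edgeR at 24 h, adjusted p = 0.113). Of 17 symbols in the endothelial list 7 were paired, 5 of them members, and at 24 h 3 were called lower and 0 higher, against 3.24% and 4.44% of all transcripts tested, with a median log2 fold change of -0.55. Of these 3, Bcl6b and Aplnr were members, whose 0 min values entered the choice, and the third was Apln. S1pr1, the endothelial receptor of sphingosine 1-phosphate and no member, had 0.59 ± 0.17 at 45 min and 0.09 ± 0.17 at 24 h and did not pass the test at either time. None of the 7 defining endothelial markers and 4 blood markers was among the transcripts that the study called changed over time, so none could be paired. In this bulk tissue fewer endothelial cells and less RNA per cell cannot be told apart, and the same holds for every member.

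**Figure D3:**
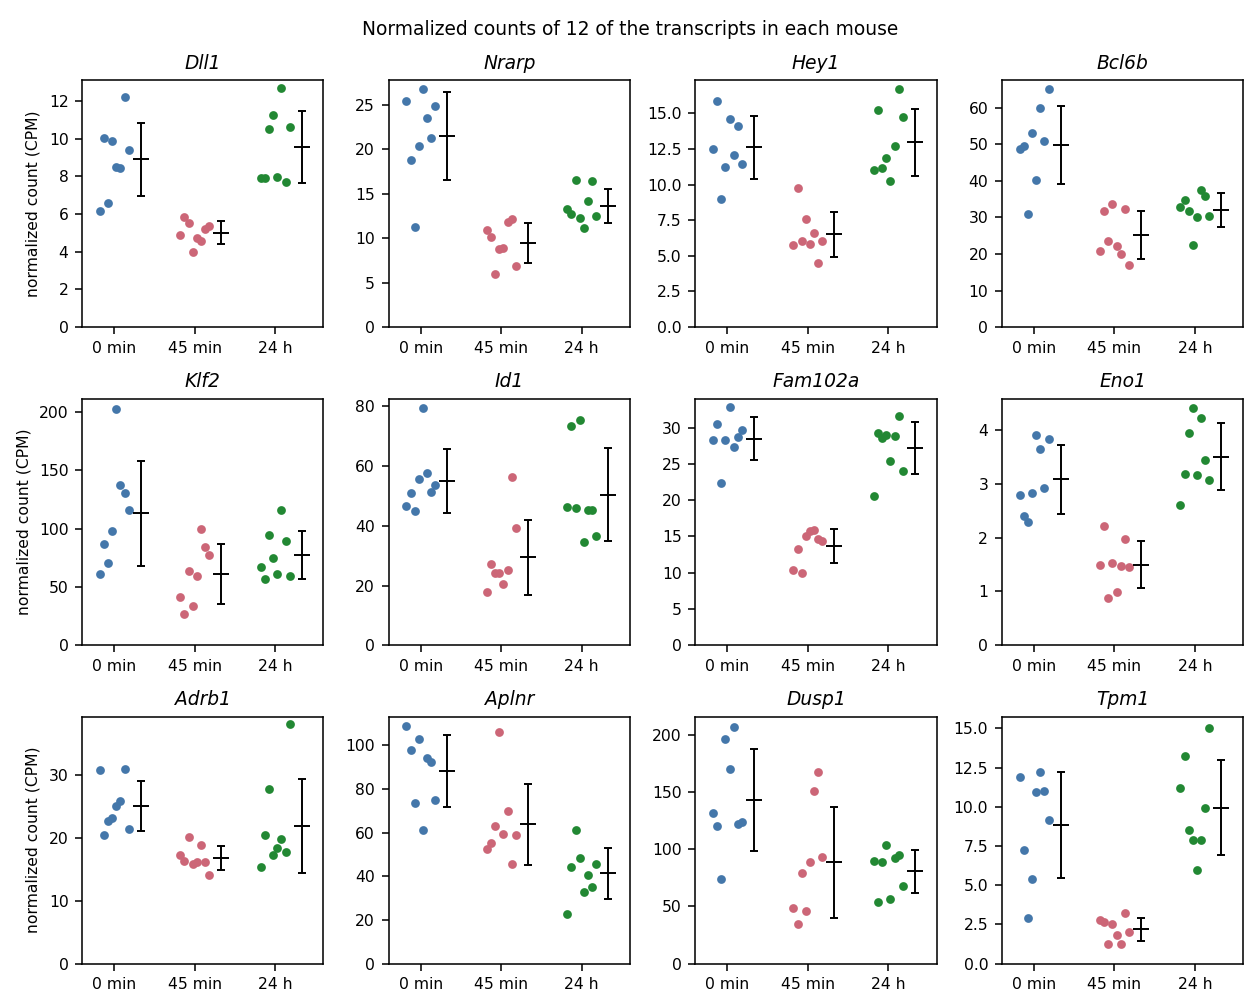
Each point is the normalized count (CPM, linear axis from 0) of 1 mouse at 0 min, 45 min or 24 h, and the black mark and bar beside it are the mean and SD of the 8 mice, for 12 of the transcripts. In Dll1, Fam102a and Eno1 the 45 min points lie below all others, in Nrarp and Bcl6b the 24 h mean lies between the other means, and in Aplnr the 24 h points lie lowest.

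Aplnr, the G protein coupled receptor of apelin, took another course. It had 61.3, 93.4 and 108.8 CPM at 0 min, 45.7, 59.04 and 106.3 CPM at 45 min, and 22.7, 42.5 and 61.2 CPM at 24 h. All 24 h mice lay below all 0 min mice, and Aplnr fell by 1.09 ± 0.18 on the log2 scale at 24 h (edgeR, adjusted p = 0.000217), against a log2 fold change of -0.47 ± 0.18 at 45 min. It was also the only member called lower at 24 h than at 45 min, by a log2 difference of -0.63 ± 0.18. That call was lost without replicate 4 of 45 min, the mouse with the highest value, where 0 members were called. Its ligand Apln, which belonged to a module and not to the members, had log2 fold changes of -0.16 ± 0.22 at 45 min and -2.01 ± 0.24 at 24 h (edgeR, adjusted p = 2.13e-06).

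The other receptors were of low or middle abundance. Adrb1, the main beta-adrenergic receptor of cardiomyocytes, had 20.4, 24.0 and 30.9 CPM at 0 min, 13.99, 16.2 and 20.1 CPM at 45 min, and 15.3, 19.1 and 38.0 CPM at 24 h. Every 45 min mouse of Adrb1 lay below every 0 min mouse, by a narrow margin, while the 24 h mice spread over both ranges (log2 fold changes of -0.57 ± 0.16 and -0.20 ± 0.16). Adrb1 was called at neither time (edgeR at 45 min, adjusted p = 0.119). Adora2a, an adenosine receptor, had 13.9, 18.6 and 29.7 CPM at 0 min, 8.73, 11.6 and 21.8 CPM at 45 min, and 10.8, 16.3 and 18.8 CPM at 24 h, with overlapping groups. Uts2r, the urotensin receptor, was near the limit of counting, with 0.293, 1.43 and 2.38 CPM at 0 min, 0.112, 0.599 and 1.48 CPM at 45 min, and 0.176, 0.312 and 1.12 CPM at 24 h, which were 1 to 27 counts per library. It fell by 1.54 ± 0.45 on the log2 scale at 24 h (edgeR, adjusted p = 0.0320) and lost that call when any of 9 single libraries was left out. The list of G protein coupled receptors had 11 paired symbols and 10 tested, 4 of them members, of which 1 was called lower at 45 min, 4 lower and 1 higher at 24 h, and the median log2 fold changes were -0.42 and -0.31. Over all transcripts tested, 0.246% were called lower at 45 min, and 3.24% lower and 4.44% higher at 24 h. Among the receptors called lower at 24 h were the members Aplnr and Uts2r, whose 0 min values entered the choice. The call at 45 min was Crhr2, a receptor of the urocortins that met the conditions of the choice and was left out of the members by name.

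Of the signalling enzymes and inhibitors, Dusp1 was the most abundant, with 74.2, 127.9 and 207.0 CPM at 0 min, 35.02, 83.8 and 167.4 CPM at 45 min, and 53.8, 88.9 and 103.6 CPM at 24 h. This phosphatase of p38 and JNK is usually counted among the immediate early genes, and its mice overlapped between all time points (log2 fold changes of -0.69 ± 0.27 and -0.83 ± 0.27; edgeR at 24 h, adjusted p = 0.0597). Without replicates 6, 7 and 8 of 45 min, left out after seeing the data, Dusp1 had -1.28 and -0.84 and was called at both times. Of the 6 other immediate early genes on the list, Fos and Fosb were called higher at 45 min, with log2 fold changes of 2.17 ± 0.46 and 4.31 ± 0.47, and Btg2, Junb, Egr1 and Nr4a3 had values from 0.54 to 1.44 that did not pass the test. Rassf9, a RAS-association domain protein, had 7.73, 11.8 and 16.2 CPM at 0 min, 2.46, 5.41 and 12.9 CPM at 45 min, and 8.90, 13.3 and 24.8 CPM at 24 h, and 7 of its 8 mice of 45 min were below all of 0 min. The remaining genes of this group had log2 fold changes at 45 min from -1.09 for Dact2 and Akap5 to -0.40 for the kinase Araf, with Plk2 at -0.90, Rgs4 at -0.74, Dusp6, the phosphatase of ERK, at -0.73 and Trib2 at -0.65. Akap5, which anchors protein kinase A beside calcium channels and beta-adrenergic receptors, had 1.56, 4.39 and 7.51 CPM at 0 min, 0.208, 2.13 and 4.01 CPM at 45 min, and 0.414, 1.48 and 1.73 CPM at 24 h. It fell by 1.80 ± 0.40 on the log2 scale at 24 h (edgeR, adjusted p = 0.00406), the lowest value among the members. Araf fell by 0.57 ± 0.18 at 24 h (edgeR, adjusted p = 0.0455) and lost that call in 11 of 24 fits that left out 1 library.

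Of the other transcription regulators, Sox9, which drives cartilage and matrix genes, had 1.74, 2.14 and 4.31 CPM at 0 min, 0.313, 0.798 and 2.30 CPM at 45 min, and 2.07, 3.40 and 5.47 CPM at 24 h, and 7 of its mice of 45 min lay below all of 0 min. Klf11, a Kruppel-like repressor, had 9.59, 15.8 and 24.7 CPM at 0 min, 4.92, 10.2 and 19.6 CPM at 45 min, and 12.7, 19.3 and 31.5 CPM at 24 h, with groups that overlapped. The 4 paired Kruppel-like factors had a median log2 fold change of -0.68 at 45 min and 0.23 at 24 h, and 0 of them were called at either time by edgeR. Hlx, a homeobox factor, had 9.72, 17.8 and 33.2 CPM at 0 min, 6.48, 8.13 and 17.1 CPM at 45 min, and 7.31, 9.76 and 14.1 CPM at 24 h. It was about as low at 24 h as at 45 min, and fell by 0.91 ± 0.25 on the log2 scale at 24 h (edgeR, adjusted p = 0.0192), a call that was lost without replicate 5 of 0 min and with a covariate for how many transcripts each library detected (edgeR, adjusted p up to 0.0683 over the alternatives).

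Fam102a (chr2:32535359-32569750), an estrogen-induced gene of little-known function, set the 45 min mice apart from all others at a middle level. It had 22.4, 28.5 and 32.9 CPM at 0 min, 9.99, 14.6 and 15.8 CPM at 45 min, and 20.6, 28.7 and 31.6 CPM at 24 h. Every 45 min mouse was below every mouse of the other time points, and the log2 fold change was -1.06 ± 0.12 at 45 min and -0.07 ± 0.12 at 24 h. Eno1 (chr4:150236708-150248879), the glycolytic enolase, did the same at a low level, with 2.29, 2.88 and 3.91 CPM at 0 min, 0.879, 1.48 and 2.21 CPM at 45 min, and 2.61, 3.31 and 4.41 CPM at 24 h (11 to 59 counts per library). Its near-identical copy Eno1b, which can share reads with it and was no member, had a log2 fold change of -1.24 ± 0.52 at 45 min, from 0 to 11 counts at 0 and 45 min, so the assignment between both is uncertain. The other 2 paired genes of the glycolysis list, Pfkl and Pgam2, had 0.06 ± 0.13 and 0.18 ± 0.34 at 45 min. Of the remaining metabolic members, the carrier of coenzyme A Slc25a42, the phosphatase subunit Ppp1r3e and the nicotinamide riboside kinase Nmrk2 had log2 fold changes at 45 min from -1.02 to -0.57, and at 24 h from 0.12 to 0.48.

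The largest falls belonged to the microRNA Mir6935 and to transcripts of genes that are abundant in muscle or in every cell. All were listed here at low levels. Tpm1, a tropomyosin of the thin filament, had 2.94, 10.1 and 12.2 CPM at 0 min, 1.25, 2.29 and 3.23 CPM at 45 min, and 5.94, 9.23 and 15.1 CPM at 24 h. The transcript of Actg1, the cytoplasmic gamma actin, had 0.367, 1.82 and 2.65 CPM at 0 min, 0.00, 0.232 and 0.595 CPM at 45 min, and 0.792, 1.70 and 2.98 CPM at 24 h, which were at most 6 counts per library at 45 min. In both, all 24 h mice were above all 45 min mice, and the log2 fold changes at 45 min were -2.01 ± 0.27 and -2.59 ± 0.45. Mir6935 (chr11:120347350-120347413) lies within the span of Actg1 on the same strand and shared no exonic bases with it in the annotation used. Whether reads of unspliced Actg1 RNA were counted for Mir6935 is not known. Mir6935 had 0.0917, 1.196 and 1.74 CPM at 0 min, 0.00, 0.0356 and 0.783 CPM at 45 min, and 0.324, 1.25 and 1.99 CPM at 24 h. The ribosomal protein transcript Rpl29 had 0.783, 2.40 and 4.24 CPM at 0 min, 0.00, 0.525 and 1.59 CPM at 45 min, and 0.951, 1.54 and 2.97 CPM at 24 h. At 45 min Rpl29 was lowest in replicates 6, 7 and 8, the libraries with the fewest transcripts detected, and without these 3 libraries its log2 fold change at 45 min was -1.41, against -1.88 with them.

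On chromosome 10 (chr10:81194691-81230845), 3 members lie in 1 locus. Atcay, a gene of the nervous system, and Nmrk2, the nicotinamide riboside kinase of muscle, are on the minus strand, and the long non-coding RNA Atcayos is on the plus strand and shares 191 and 270 exonic bases with them. Atcay had 4.22, 8.36 and 11.7 CPM at 0 min, 0.336, 2.199 and 4.86 CPM at 45 min, and 1.47, 4.77 and 14.3 CPM at 24 h, and its log2 values were -1.75 ± 0.43 at 45 min and -0.45 ± 0.40 at 24 h. Nmrk2 had 8.20, 14.4 and 24.5 CPM at 0 min, 4.32, 9.30 and 19.2 CPM at 45 min, and 7.72, 18.1 and 44.5 CPM at 24 h, so its range was widest at 24 h. Atcayos had 24.5, 35.4 and 44.7 CPM at 0 min, 15.9, 23.0 and 36.1 CPM at 45 min, and 5.88, 13.9 and 30.6 CPM at 24 h, and it fell by 1.05 ± 0.26 on the log2 scale at 24 h (edgeR, adjusted p = 0.00997). The sources used here do not say whether reads were counted by strand, so reads of the shared stretches cannot be assigned to 1 of the genes. Of the 57 members found in the annotation, 14 share exonic bases with another gene, among them Nrarp, Dll1, Hic2, Sphk2 and Fam84b with genes of the opposite strand.

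At 24 h the members went different ways. Against 0 min, 26 of the 59 were within 0.25 log2 units, 10 were higher and 23 lower by more, and the median log2 fold change was -0.06, against 0.00327 over all 8940 transcripts tested. Of the members, 12 (20.3%) were called lower at 24 h than at 0 min at an adjusted p under 0.05, against 3.24% of all transcripts tested, and 0 were called higher, against 4.44%. At an unadjusted p under 0.05, 18 were lower and 0 higher by edgeR, and DESeq2 likewise called 0 higher. The 0 min samples entered both the choice of members and this comparison, and the study chose its table with a test over all time points on these mice, so these counts are not independent of the choice.

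The 12 were Nrarp, Bcl6b, Aplnr, Uts2r, Akap5, Hlx, Araf and Atcayos, given above, and Fgf16, Gm6086, D830013O20Rik and Sec14l5. Fgf16, a growth factor made by cardiomyocytes, had 12.8, 19.4 and 25.7 CPM at 0 min, 8.18, 14.7 and 19.0 CPM at 45 min, and 6.80, 11.4 and 14.6 CPM at 24 h, and fell by 0.86 ± 0.18 on the log2 scale at 24 h (edgeR, adjusted p = 0.00281). Gm6086, a sulfotransferase gene, had 2.73, 4.58 and 6.46 CPM at 0 min, 0.521, 2.92 and 5.46 CPM at 45 min, and 1.23, 1.503 and 1.96 CPM at 24 h, and fell by 1.53 ± 0.30 (edgeR, adjusted p = 0.00133). The non-coding RNA D830013O20Rik had 2.24, 2.85 and 3.54 CPM at 0 min, 0.900, 1.86 and 2.29 CPM at 45 min, and 1.32, 1.61 and 1.86 CPM at 24 h. In Aplnr, Gm6086 and D830013O20Rik all 24 h mice were below all 0 min mice, which held for 0.649% of all transcripts tested. Sec14l5, a lipid-transfer protein, fell by 0.68 ± 0.18 at 24 h (edgeR, adjusted p = 0.0175).

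By role, the 24 h values are given as a description, since the groups were made with the values known and carry no test; 3.24% of all transcripts tested were called lower at 24 h. Of the 8 receptors, ligands and surface proteins, 3 were called lower at 24 h and the median log2 fold change was -0.56. The 12 signalling enzymes, inhibitors and adaptors had 2 calls and a median of -0.23, and the 11 transcription regulators 2 calls and a median of 0.19. The 4 long non-coding RNAs had 2 calls and a median of -0.54. The 4 metabolic genes had 0 calls at 24 h and a median of 0.26. Tpm1, Actg1, Rpl29 and the microRNA Mir6935, grouped together, had 0 calls and a median of 0.17. The 4 Notch genes had 1 call and a median of 0.07, and the 12 other coding genes 2 calls and a median of 0.11.

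**Figure D4:**
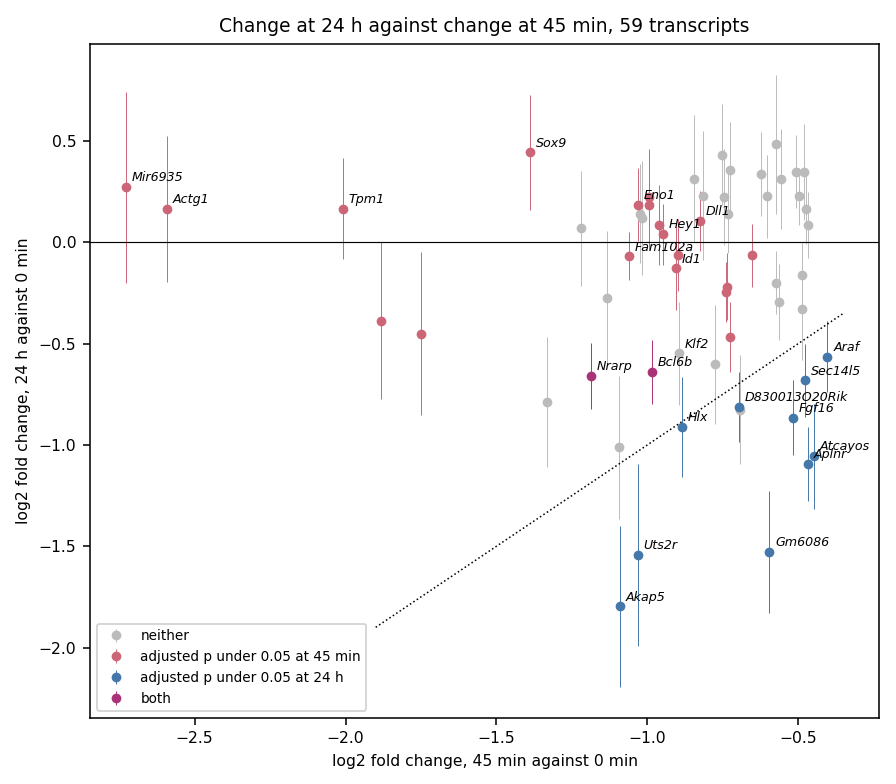
Each point is 1 of the 59 transcripts, with its log2 fold change at 45 min on the x axis and at 24 h on the y axis, both against the same 0 min mice, and bars of 1 SE at 24 h; colors mark adjusted p under 0.05 at either time, and points below the dotted line of equal change were lower at 24 h than at 45 min. The transcripts with the largest change at 45 min (Mir6935, Actg1 and Tpm1) lie near 0 at 24 h, and the 12 called at 24 h lie between -1.80 and -0.57.

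Between 45 min and 24 h, 35 members (59.3%) were called higher at 24 h, against 4.59% of all transcripts tested, and 1, Aplnr, lower, against 4.51%. This contrast shares the 45 min mice on which the members were chosen, so nothing is read from the count. The median log2 difference was 0.83, against 0.03 over all transcripts. In 9 members (Actg1, Tpm1, Eno1, Hey1, Fam102a, Dtx4, Dll1, Klhl6 and Fam227a) all 24 h mice were above all 45 min mice, which 0.682% of all transcripts showed. Of the 21 members called at 45 min (35.6%, against a background of 0.246% of all transcripts that is mostly these same members, the contrast being that of the choice), 17 were called higher at 24 h than at 45 min and not called at 24 h against 0 min. In 5 members (Eno1, Fam102a, Adrb1, Dll1 and Klhl6) all 45 min mice were below all 0 min mice. This held for 6 transcripts (0.0671%) of all those tested, 5 of which are these members, as the choice on the same values would have it. Adrb1 and Klhl6 were not called at 45 min. The size of the fall at 45 min ranged from -2.73 for Mir6935 to -0.40 for Araf on the log2 scale, with a median of -0.77 against 0.01 over all transcripts.

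The mean at 45 min had chosen the members, so low values in the libraries of that time follow largely from the choice. The values by library are therefore a description, and nothing is read from them. In each of the 8 libraries of 45 min between 53 and 59 of the members were below their mean at 0 min. The median log2 ratio to that mean was -0.84 to -0.60, against -0.29 to 0.06 in the libraries of 0 min and -0.29 to 0.02 in those of 24 h. The median over all transcripts tested was -0.14 to -0.03 in the 45 min libraries, with the lowest values in replicates 6, 7 and 8. Without these 3 libraries, a choice made after seeing the data, the median log2 fold change of the members at 45 min was -0.84, 16 members were called at 45 min with 11 of them among the 21, and 13 at 24 h. Klf2, Hlx, Dusp1, Sertad3 and Adora2a were called at 45 min there and not in the fit of all 24 libraries. Atcay, Rpl29, Sox9, Rassf9, Plk2, Smad7, Hhex, Dusp6, Tcf15 and Trib2 were no longer called. Within time points, the median SD of log2 CPM was 0.34 (0 min), 0.42 (45 min) and 0.36 (24 h) for the members, and 0.38, 0.47 and 0.37 for all transcripts tested.

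**Figure D5:**
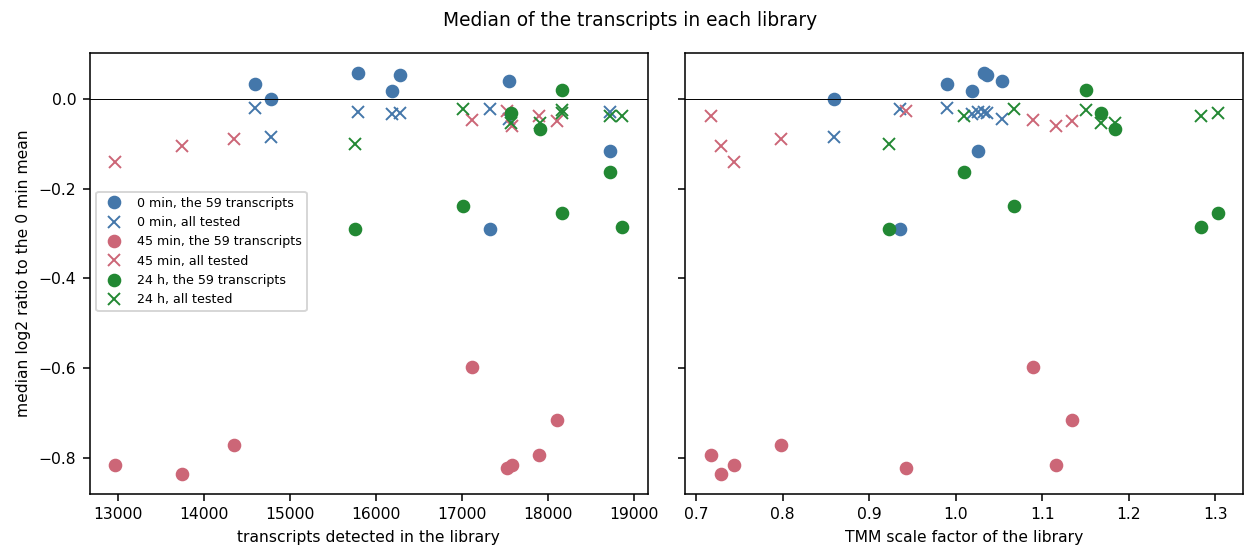
Each filled point is the median over the 59 transcripts, and each cross the median over all transcripts tested, of the log2 ratio to the 0 min mean in 1 library, against the number of transcripts detected (left) and the TMM scale factor (right). The 8 libraries of 45 min have member medians between -0.84 and -0.60, values on which the members were chosen. The part of library detection in these values was not tested.

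Markers of other cells moved at 24 h. Of 4 paired markers of epicardium and mesothelium 3 were tested and all 3 were called higher at 24 h, and their summed level was 0.718 to 7.65 CPM at 0 min, 0.298 to 7.83 CPM at 45 min and 3.79 to 37.5 CPM at 24 h. The neutrophil receptor Cxcr2, the only marker of its kind paired, had at most 0.640 CPM at 0 min, 0.114 to 3.19 CPM at 45 min and 1.56 to 8.29 CPM at 24 h, and was called higher at 24 h. Of the monocyte and macrophage markers 4 of 4 tested were called higher at 24 h, with a summed level of 35.5 to 58.0 CPM at 0 min, 32.9 to 65.3 CPM at 45 min and 68.8 to 203.0 CPM at 24 h. Actc1, the only cardiomyocyte marker paired, had 12060 to 18910 CPM at 0 min and fell by 1.38 ± 0.18 on the log2 scale at 24 h, and the fibroblast marker Col3a1 rose by 0.75 ± 0.22. By the same test, 0 of these markers were called at 45 min. Their part in the lower 24 h values of the members was not tested. The 7 ion channel transcripts and 6 lipid metabolism transcripts tested held no members, and had median log2 fold changes of -0.08 and 0.19 at 45 min and of -0.64 and 0.82 at 24 h. Of the channels, 1 (Kcna5) was called higher at 45 min and 3 lower at 24 h, and of the lipid transcripts 4 were called higher at 24 h. Over all transcripts tested, 4.44% were called higher and 3.24% lower at 24 h. The markers, channels and lipid transcripts all came from the study's table, which was chosen on these samples.

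The line of the choice ran through a continuum. Just inside it were Ccdc102a, Araf, Mir143hg, Sec14l5 and Msc, with log2 ratios of -0.556, -0.529, -0.518, -0.509 and -0.509, and just outside Lrrc3b, Col8a2, Ets2, Pdgfb and Mex3d, with -0.487, -0.485, -0.482, -0.468 and -0.449. With TMM-scaled CPM in place of the library total, 47 transcripts met the conditions, all of them among the 59. Aplnr, Atcayos, Araf and Sec14l5, which were called at 24 h, were not among the 47. The TMM factors were 0.717 to 1.135 in the 45 min libraries and 0.860 to 1.053 in those of 0 min. The most abundant transcript held 2.72% to 35.2% and 2.40% to 20.9% of their counts. All 59 passed the filter on low counts, and 50 had at least 10 counts in every library of 0 min, while 10 had a mean under 1 CPM at 45 min.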

How the data were processed

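Left ventricular mRNA of 24 mice was sequenced by the study from a directional poly(A) library. Per the study's methods, the authors trimmed reads with cutadapt 1.9.1, mapped them to mm10 with TopHat2 2.1.0 and Bowtie2 2.2.9, and counted them with HTSeq 0.6.0; counting mode, strand setting and transcript list are not given in the sources used here. The deposited values are raw counts per UCSC transcript. Symbols came from the study's supplementary tables, for the 1209 transcripts that the study called changed over time. The fit used edgeR 4.0.16 under R 4.3.3, with filterByExpr (minimum of 10 counts, 15 in total), TMM scaling, and a quasi-likelihood model of time on all 24 samples, with Benjamini-Hochberg adjustment over 8940 transcripts and a threshold of 0.05. Standard errors are the fold change over the root of F. The code was tested on simulated data with 200 of 8940 transcripts changed by 1 log2 unit. There edgeR called 55.5% of them at 45 min and 49.5% at 24 h, with 0.893% and 2.94% of its calls false. A transcript that was not called may therefore still have changed. Alternatives used DESeq2 1.42.0, limma 3.58.1 and sva 3.50.0. Depth limits the low transcripts most. The smallest chi-square per degree of freedom between replicates of a time point was 10.5, so no library was a copy of another of its time point. Pairs across time points were not compared.

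The members, gene lists and tests were chosen with earlier results of these data known. Values by mouse are given for Eno1, Fam102a and Dll1, for members on a list and for the 12 largest falls, 25 genes in all; Akap5, Hlx, Nmrk2, Atcayos, Fgf16, Gm6086 and D830013O20Rik were added after their values were seen, as were the roles. Gene spans and promoters are from RefSeq GRCm38.p6, the build called mm10, and exon overlaps from GENCODE.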

Additional observations from a re-analysis of the deposited data

Results flagged for a closer look

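Among 99 groups of 8 values (32 transcripts and the median of the members, at 3 time points each), 6 had a mouse far from the other 7; chance flags about 1 in 20 groups. Id1 was 79.5 CPM in replicate 5 of 0 min, against 57.7 CPM in the next mouse, and Adora2a was 29.7 CPM in the same mouse, against 20.5 CPM. Rassf9 was 12.9 CPM in replicate 4 of 45 min (next 6.35 CPM), and Aplnr was 106.3 CPM in that mouse too (next 70.0 CPM). Rassf9 was also 24.8 CPM in replicate 8 of 24 h (next 14.8 CPM), and Mir6935 was 0.783 CPM in replicate 8 of 45 min (next 0.320 CPM).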

How the results depend on the processing

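No called log2 fold change at 45 min or 24 h changed sign. At 24 h, 12 members that were not called had values on both sides of 0 over the alternatives, among them Dll1, Hey1, Id1, Smad7 and Actg1. The count of members lower at 45 min than 0 min was 21. It was 13 with only the samples of the contrast, 33 with 1 surrogate variable and 10 at a threshold of 0.01. With transcripts detected as a covariate it was 31, all of the 21 among them, and 0.459% of all transcripts tested were called. Leaving out 1 library gave 11 to 23, with 12 without replicate 1 of 0 min, 13 without replicate 7, 11 without replicate 8, and 12 and 13 without replicates 5 and 6 of 45 min. Members lower at 24 h than 0 min numbered 12, and 6 at a threshold of 0.01 (10 to 14 over single libraries). Members higher at 24 h than 0 min numbered 0, and 1 (Msc) with transcripts detected as a covariate or with 1 surrogate variable. Members higher at 24 h than 45 min numbered 35, and 20 at a threshold of 0.01 (25 to 36 over single libraries). Members lower at 24 h than 45 min numbered 1. They were 2 with RLE factors, DESeq2, the covariate or the surrogate variable, 3 without the 3 libraries of low detection, and 0 without the filter, with only the samples of the contrast or at a threshold of 0.01 (0 to 2 over single libraries). The cause of these moves was not tested, other than that a stricter threshold calls fewer. The number of members was 47 to 60 under other definitions and 55 to 64 over single libraries.

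Same-numbered samples of different time points had correlations of -0.541 to 0.583 over 24 pairs, on log2 CPM less the mean of the time point. Unlike-numbered samples were not compared, so this range cannot show whether replicate numbers pair the libraries. With the replicate number as a block, 13 members were lower at 45 min, 12 of them among the 21, and 12 were lower at 24 h, the same 12.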
